A study of Tupaia belangeri chinensis with 36 samples.

Results

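The miR-181 family of microRNAs was followed in males of the Chinese tree shrew, through the testis and both ends of the epididymis, the caput at its head and the cauda at its tail, in a reproductive (R) and a non-reproductive (NR) season. Its members were taken as the rows of the deposited miRNA table whose names begin with mmu-miR-181a, mmu-miR-181b, mmu-miR-181c or mmu-miR-181d, whichever arm they named. This gave 10 of the 1210 rows, 4 of them 5p arms and 6 of them 3p arms. The names are those of mouse miRNAs.

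MicroRNAs are short RNAs cut from hairpin precursors, each of which yields a 5p and a 3p arm. Loaded into an Argonaute protein, the mature miRNA pairs with messenger RNAs mainly through its seed, the stretch near its 5′ end, and represses them. The miR-181 5p arms share 1 seed and are close to each other in sequence, and miR-181a is best known from mouse thymus, where it tunes the sensitivity of T cells to antigen. In mouse and human, miR-181a and miR-181b are each made from a pair of gene copies. The copies give the same 5p arm, while their 3p arms carry different sequences and names, so that miR-181a-1-3p and miR-181a-2-3p tell the copies apart. In the RefSeq annotation of the tree shrew assembly TupChi_1.0, 5 miR-181 loci were listed. MIR181B stood next to MIR181A-1, MIR181A-2 had no miRNA beside it, and MIR181C stood next to MIR181D, between MIR27A and NANOS3. Reads of near-identical 5p arms can be split among members by the counting, so the division of counts among the 5p arms is uncertain to that extent.

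The 6 groups were TESTIS-R, TESTIS-NR, CAPUT-R, CAPUT-NR, CAUDA-R and CAUDA-NR, each with 3 small RNA libraries of single reads of 50 nt. All animals were sexually mature males of 1.5 to 2 years with no treatment or mutation named. R animals were collected in April 2024 and NR animals in December 2023, so season and collection date cannot be told apart. The study asked how messenger and small RNAs of these tissues differ between the seasons.

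In the deposited table, every value of TESTIS-NR 2 and CAPUT-NR 2 was the average of TESTIS-NR 1 and 3 or of CAPUT-NR 1 and 3, within 0.5 counts. They were left out, which left 16 measured libraries, with 2 in TESTIS-NR, 2 in CAPUT-NR and 3 in each other group. Total miRNA counts ran between 2166152 and 14756858 per library. Levels are given as CPM, the count per 1000000 miRNA counts of the library. The testis libraries differed among themselves in germ cell markers. The summed level of the 6 miR-34 and miR-449 rows, typical of meiotic and postmeiotic germ cells, was 5713 to 7994 CPM in TESTIS-R, 341 CPM in TESTIS-NR 1 and 4704 CPM in TESTIS-NR 3. The 10 rows of the epithelial miR-200 family summed to 211 to 3559 CPM in the testis, 91121 to 121066 CPM in the caput and 62715 to 96639 CPM in the cauda. In bulk tissue, fewer cells of a type and less RNA per cell cannot be told apart.

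The family held 0.330% to 1.55% of all miRNA counts, most in the testis and least in the cauda. Its share of all miRNA counts was 1.42% ± 0.12 in TESTIS-R and 1.04% ± 0.15 in TESTIS-NR (SD, n = 3 and 2). In the caput it was 0.852% ± 0.193 in CAPUT-R and 0.794% ± 0.002 in CAPUT-NR (SD, n = 3 and 2). In the cauda it was 0.346% ± 0.018 in CAUDA-R and 0.453% ± 0.061 in CAUDA-NR (SD, n = 3 each). Every testis library but TESTIS-NR 1, at 0.934%, lay above every caput library, of which CAPUT-R 1 reached 1.05%, and every caput library lay above every cauda library.

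The 5p arms of miR-181a and miR-181b held most of the family everywhere, while miR-181c and miR-181d gained share toward the cauda. Together, mmu-miR-181c-5p and mmu-miR-181d-5p held 1.25% to 3.22% of the 5p counts in the testis, 7.94% to 13.9% in the caput and 22.4% to 33.7% in the cauda. These ranges did not overlap, and being shares within a library they do not depend on scaling between libraries. All 3p arms together held only 2.79% to 6.30% of the family counts. The ratio of mmu-miR-181d-5p to mmu-miR-181c-5p stayed between 1.20 and 2.11 over the 16 libraries, so these neighbours in the genome moved nearly in step.

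**Figure D1:**
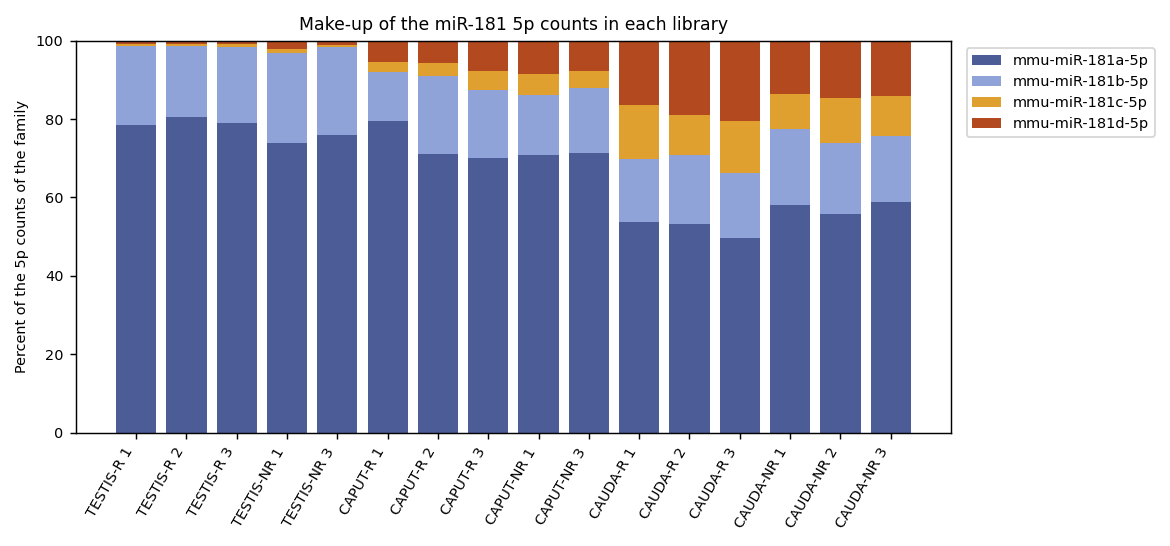
Percent of the miR-181 5p counts held by each of the 4 5p arms (vertical axis) in each of the 16 measured libraries (horizontal axis, 1 bar each). The share of mmu-miR-181c-5p and mmu-miR-181d-5p together lay between 1.25% and 3.22% in the testis, 7.94% and 13.9% in the caput and 22.4% and 33.7% in the cauda.

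The most abundant member was mmu-miR-181a-5p, at place 29 of the table by mean level. It had 11558, 10808 and 10020.5 CPM in the TESTIS-R libraries and 6615 and 8189 CPM in the TESTIS-NR libraries. It had 8048, 5748 and 4480 CPM in CAPUT-R and 5487 and 5454 CPM in CAPUT-NR. In the cauda it had 1758, 1861 and 1558 CPM in CAUDA-R and 2862, 2101 and 2595 CPM in CAUDA-NR. Thus the cauda libraries were all below every testis and caput library, the TESTIS-R libraries were above all others, and TESTIS-NR overlapped the caput.

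The second member, mmu-miR-181b-5p, whose annotated tree shrew locus MIR181B stood next to MIR181A-1, followed the same order. Its level was 2977, 2426 and 2466 CPM in TESTIS-R and 2035 and 2406 CPM in TESTIS-NR. Its caput values were 1283, 1610 and 1102 CPM in CAPUT-R and 1179 and 1274 CPM in CAPUT-NR. Its cauda values were 524, 620 and 523 CPM in CAUDA-R and 962, 688 and 746 CPM in CAUDA-NR. On this scale the 3 tissues did not overlap.

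The members of the other locus ran the opposite way. mmu-miR-181c-5p had 66.3, 64.6 and 84.5 CPM in TESTIS-R, and 103 and 59.7 CPM in TESTIS-NR. It had 259, 264 and 301 CPM in CAPUT-R and 420 and 315 CPM in CAPUT-NR. It had 448, 351 and 414 CPM in CAUDA-R and 435, 429.3 and 440 CPM in CAUDA-NR. All testis libraries were below all epididymal ones. Caput and cauda overlapped only across seasons. Within R and within NR, every caput library lay below every cauda library in CPM.

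mmu-miR-181d-5p repeated this pattern at a somewhat higher level. The TESTIS-R libraries held 137, 103 and 111 CPM, and the TESTIS-NR libraries 185 and 118 CPM. The caput libraries held 546, 452 and 499 CPM in CAPUT-R and 653 and 600 CPM in CAPUT-NR. The cauda libraries held 536, 667 and 646 CPM in CAUDA-R and 670, 552 and 626 CPM in CAUDA-NR. Again the testis stood apart on the low side, and here caput and cauda overlapped within each season.

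The 3p arms of the 2 miR-181a copies differed from each other in where they were high. mmu-miR-181a-1-3p followed its 5p arm, with 629, 657 and 406 CPM in TESTIS-R and 323 and 626 CPM in TESTIS-NR. It had 199.2, 142.2 and 156 CPM in CAPUT-R and 91.6 and 138 CPM in CAPUT-NR, against 48.4 to 84.1 CPM over the 6 cauda libraries. The 3 tissues did not overlap for this arm.

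mmu-miR-181a-2-3p was instead highest in the caput. It had 11.3, 7.92 and 6.00 CPM in TESTIS-R, and 37.8 and 34.9 CPM in TESTIS-NR. It had 99.3, 64.4 and 55.6 CPM in CAPUT-R and 38.6 and 53.1 CPM in CAPUT-NR, against 7.20 to 13.9 CPM over the cauda libraries. TESTIS-R thus overlapped the cauda, and both TESTIS-NR libraries lay above TESTIS-R and just below the caput.

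Of the remaining 3p arms, mmu-miR-181b-1-3p had 27.5 to 81.2 CPM in the testis, 34.8 to 71.2 CPM in the caput and 18.1 to 23.9 CPM in the cauda. mmu-miR-181c-3p had 17.8, 7.50 and 25.4 CPM in TESTIS-R and 5.11 and 6.20 CPM in TESTIS-NR. It had 28.1 to 32.4 CPM in CAPUT-R, 44.2 and 56.6 CPM in CAPUT-NR, 69.5 to 74.9 CPM in CAUDA-R and 51.5 to 76.5 CPM in CAUDA-NR, so it was lowest in the testis like its 5p arm. mmu-miR-181d-3p had 40 counts in all, in 10 libraries, and mmu-miR-181b-2-3p had 5 counts in 5 libraries. These last members were too low to be tested, which left 8 of the 10 in every test.

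**Figure D2:**
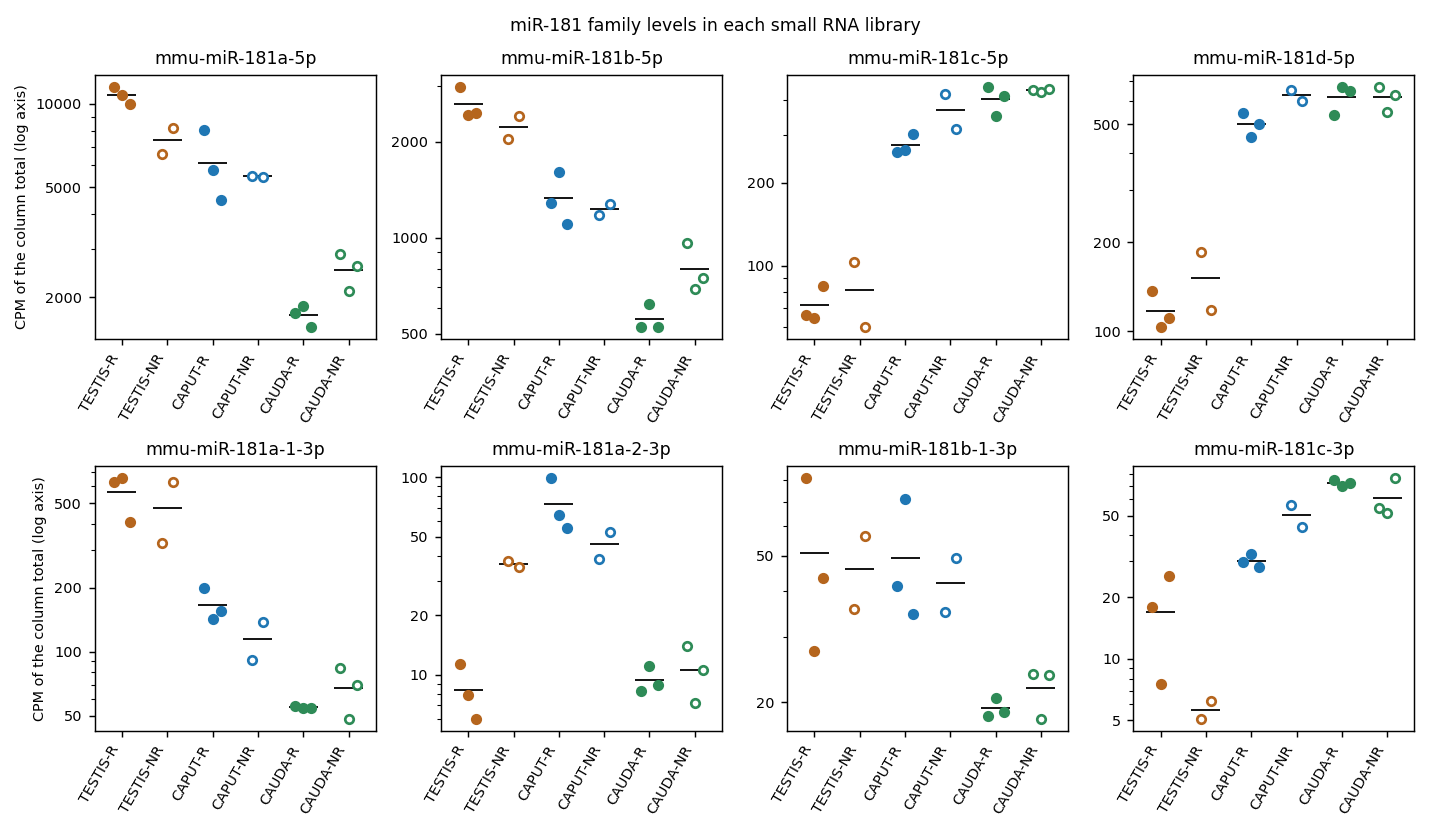
Level of the 8 better detected miR-181 members in each library, as CPM of the column total on a log axis (1 point per library, filled for R and open for NR, bar at the group mean). The cauda points of mmu-miR-181a-5p, at 1558 to 2862 CPM, lie below all testis and caput points, while mmu-miR-181c-5p is lowest in the testis, at 59.7 to 103 CPM.

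The testis was compared with the caput within each season, with edgeR's quasi-likelihood test on the counts and Benjamini-Hochberg adjustment over 784 miRNAs. Library sizes were scaled by TMM, the trimmed mean of M-values. In the R season, the miR-181c and miR-181d arms and mmu-miR-181a-2-3p were lower in the testis than in the caput. In all, 4 of 8 members were called (adjusted p under 0.05), beside 28.7% of all miRNAs tested. None of the 8 was called higher and 4 were called lower, beside 11.2% of all miRNAs called higher and 17.5% called lower. The median log2 difference over the 8 members was −1.13, against 0.00 over all miRNAs tested. By edgeR, mmu-miR-181a-2-3p had a log2 difference, testis minus caput, of −3.96 (SE 0.47, adjusted p = 9.99e-05), the widest gap among the members. In the same edgeR fit mmu-miR-181d-5p differed by −2.89 (SE 0.31, adjusted p = 3.71e-05) and mmu-miR-181c-5p by −2.71 (SE 0.32, adjusted p = 8.54e-05). mmu-miR-181c-3p differed by −1.60 (SE 0.42, edgeR adjusted p = 0.0127), a call lost with column totals, in a fit on the compared groups alone, without NR libraries numbered 3, and without any one of CAPUT-NR 1, CAPUT-NR 3, CAUDA-NR 3 or CAUDA-R 1.

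For the abundant 5p arms and mmu-miR-181a-1-3p, this comparison depended on the scaling. The TMM factors were 1.30 to 1.34 in TESTIS-R and 0.613 to 1.03 in CAPUT-R, and using column totals instead moved the median of the miRNAs with at least 10 CPM by 0.75 on the log2 scale. The same shift was 0.36 for testis against cauda and −0.37 for caput against cauda in R, and 0.48 for testis against caput and −0.40 for caput against cauda in NR. It was 0.27 and 0.30 for the season change of testis against caput and against cauda. mmu-miR-181a-5p, whose CPM values did not overlap between TESTIS-R and CAPUT-R, differed by −0.00 with TMM (SE 0.28, edgeR adjusted p = 1) and by 0.83 with column totals (edgeR adjusted p = 0.0133). mmu-miR-181b-5p differed by 0.23 with TMM (SE 0.20, edgeR adjusted p = 0.394) and by 0.98 with column totals. mmu-miR-181a-1-3p differed by 0.94 with TMM (SE 0.35, edgeR adjusted p = 0.0621) and by 1.77 with column totals (edgeR adjusted p = 0.0024). With column totals 3 members were called higher and 3 lower, in place of 0 and 4, and in NR 2 were called higher and 3 lower. In either direction, 222 of 784 miRNAs were then called in R and 113 of 784 in NR. No direction is given for these 5p arms between testis and caput.

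In the NR season, 4 of 8 members were called between testis and caput, beside 15.1% of all miRNAs. The 1 higher stood beside 5.87% of all miRNAs and the 3 lower beside 9.18%. The lower ones were those of the miR-181c and miR-181d locus. By edgeR, mmu-miR-181c-3p differed by −3.66 (SE 0.56, adjusted p = 0.00113), mmu-miR-181c-5p by −2.65 (SE 0.39, adjusted p = 0.000889) and mmu-miR-181d-5p by −2.52 (SE 0.37, adjusted p = 0.000889). mmu-miR-181a-1-3p was higher in the testis by 1.54 (SE 0.43, edgeR adjusted p = 0.0332), a call lost without any one of CAPUT-NR 1, CAPUT-NR 3, TESTIS-NR 3, CAPUT-R 1, CAPUT-R 3, CAUDA-NR 1, CAUDA-NR 2, CAUDA-R 2 or CAUDA-R 3. These groups held 2 libraries each. A fit on those 4 libraries alone called 0 members, beside 0 of all 433 miRNAs, so it says nothing particular to the family. Without NR libraries numbered 3 a single library was left in each group, and fewer members were called.

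The testis was then set against the cauda. In the R season, 6 of 8 members were called, beside 24.1% of all miRNAs. The 3 higher stood beside 9.31% of all miRNAs and the 3 lower beside 14.8%. The higher ones were mmu-miR-181a-1-3p and the 5p arms of miR-181a and miR-181b. By edgeR, mmu-miR-181a-1-3p differed by 3.002 (SE 0.37, adjusted p = 9.55e-05), mmu-miR-181a-5p by 2.28 (SE 0.30, adjusted p = 0.000122) and mmu-miR-181b-5p by 1.88 (SE 0.21, adjusted p = 4.75e-05). The miR-181c and miR-181d arms were lower, with differences of −2.85 for mmu-miR-181c-5p (SE 0.32, edgeR adjusted p = 4.75e-05), −2.75 for mmu-miR-181d-5p (SE 0.30) and −2.45 for mmu-miR-181c-3p (SE 0.43, edgeR adjusted p = 0.00126). mmu-miR-181a-2-3p did not pass, at −0.52 (SE 0.42, edgeR adjusted p = 0.366), nor did mmu-miR-181b-1-3p, at 1.04 (SE 0.40, edgeR adjusted p = 0.0784).

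In the NR season, 7 of 8 members were called between testis and cauda, beside 20.8% of all miRNAs. The 4 higher stood beside 10.2% of all miRNAs and the 3 lower beside 10.6%. mmu-miR-181a-1-3p differed by 2.72 (SE 0.39), mmu-miR-181a-5p by 1.47 (SE 0.31) and mmu-miR-181b-5p by 1.39 (SE 0.22), with edgeR adjusted p of 0.000955, 0.00557 and 0.00138. mmu-miR-181a-2-3p was higher in the testis by 1.72 (SE 0.46, edgeR adjusted p = 0.0191). The 3 miR-181c and miR-181d arms were lower again, by −3.50, −2.47 and −2.08 for mmu-miR-181c-3p, mmu-miR-181c-5p and mmu-miR-181d-5p. Without TESTIS-NR 3 a single testis library was left in NR, and fewer members and fewer of all miRNAs were called. The calls of mmu-miR-181a-5p, mmu-miR-181d-5p and mmu-miR-181a-2-3p were among those lost. The call of mmu-miR-181a-2-3p was also lost without TESTIS-NR 1, CAUDA-NR 1, CAUDA-NR 2 or CAUDA-R 3.

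Within the epididymis, the caput was higher than the cauda in the 5p arms of miR-181a and miR-181b and in mmu-miR-181a-2-3p in both seasons, and in mmu-miR-181a-1-3p and mmu-miR-181b-1-3p by the test in R. No miR-181c or miR-181d arm passed the test in either season. In the R season, 5 of 8 members were called, all higher in the caput, beside 6.76% of all miRNAs (3.7% higher and 3.06% lower). By edgeR, mmu-miR-181a-2-3p differed by 3.44 (SE 0.46, adjusted p = 0.000622), mmu-miR-181a-5p by 2.28 (SE 0.30, adjusted p = 0.000522) and mmu-miR-181a-1-3p by 2.06 (SE 0.36, adjusted p = 0.00418). mmu-miR-181b-5p differed by 1.65 (SE 0.21, edgeR adjusted p = 0.000522). mmu-miR-181b-1-3p differed by 1.70 (SE 0.40, edgeR adjusted p = 0.0223), a call lost without any one of the 6 libraries compared, without CAPUT-NR 3, CAUDA-NR 1 or CAUDA-NR 2, and with column totals. mmu-miR-181c-5p differed by −0.14 (SE 0.30) and mmu-miR-181d-5p by 0.14 (SE 0.29), with edgeR adjusted p of 1 and 0.998. The third arm, mmu-miR-181c-3p, differed by −0.85 (SE 0.41, edgeR adjusted p = 0.337), with every CAPUT-R library below every CAUDA-R library in CPM. A fit on the compared groups alone called 5 members higher and 1 lower, beside 84 of 484 miRNAs.

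In the NR season, 3 of 8 members were called between caput and cauda, all higher, beside 3.32% of all miRNAs (1.79% higher and 1.53% lower). mmu-miR-181a-2-3p differed by 2.53 (SE 0.47), mmu-miR-181a-5p by 1.54 (SE 0.31) and mmu-miR-181b-5p by 1.03 (SE 0.22), with edgeR adjusted p of 0.0106, 0.0150 and 0.0202. mmu-miR-181b-1-3p, at 1.36 (SE 0.43), and mmu-miR-181a-1-3p, at 1.18 (SE 0.38), did not pass (edgeR adjusted p = 0.139 for both). With TMM, mmu-miR-181c-5p differed by 0.18 (SE 0.33) and did not pass, though every CAPUT-NR library lay below every CAUDA-NR library in CPM. The sign of its difference in NR thus depended on the scaling. Without CAPUT-NR 1 or CAPUT-NR 3 a single caput library was left in NR, and fewer members and fewer of all miRNAs were called. All 3 calls were lost without CAUDA-NR 2, beside 10 of 775 miRNAs still called, in place of 26 of 784. Without CAUDA-NR 3, 1 was left, beside 23 of 776. Without TESTIS-NR 3, which left 1 testis library in NR, fewer members were called, though not fewer of all miRNAs. The call of mmu-miR-181b-5p was also lost without CAUDA-NR 1 or CAUDA-R 1 and with column totals. The smooth muscle miRNAs miR-143 and miR-145 summed to 5214 to 12205 CPM over testis and caput and 23147 to 40039 CPM in the cauda; their part in the differences from the cauda was not tested, nor was that of the epithelial rows in the differences from the testis.

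**Figure D3:**
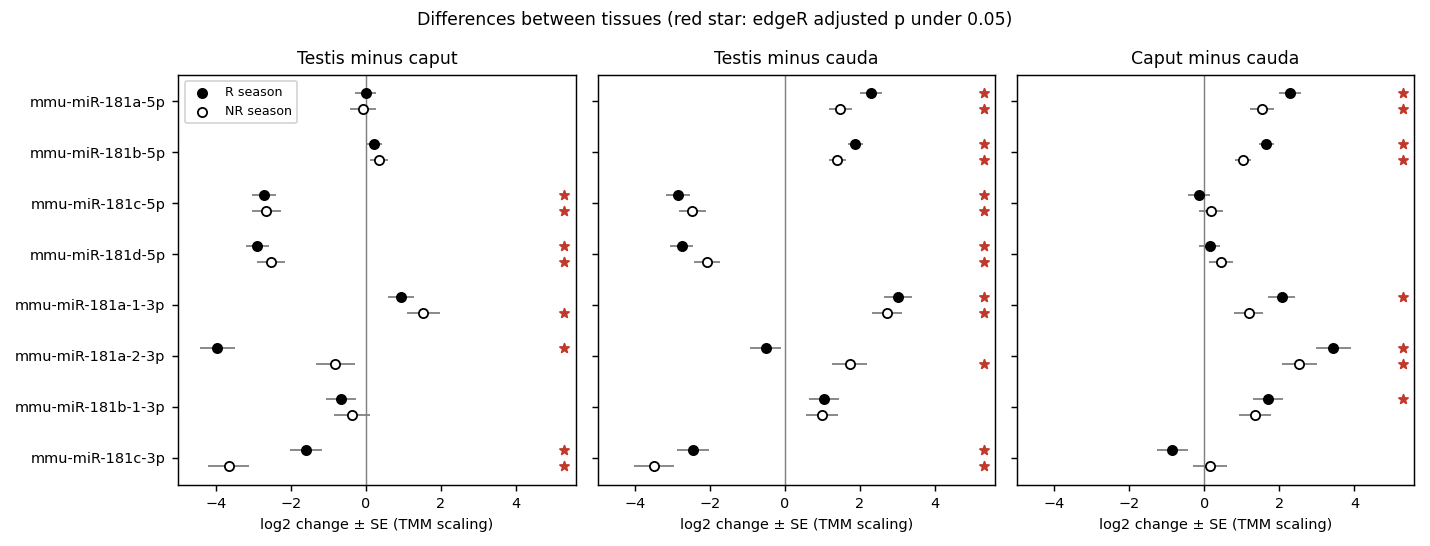
Differences between tissues for 8 miR-181 members, as log2 change with its standard error (horizontal axis, TMM scaling), in the R season (filled) and the NR season (open). Stars mark edgeR adjusted p under 0.05. The miR-181c and miR-181d arms lie to the left in both panels with the testis, while mmu-miR-181a-5p lies near 0 against the caput and at 1.47 and 2.28 against the cauda.

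Ratios within a library do not depend on scaling. For each of 3 ratios and 3 pairs of tissues, 9 tests in all, the difference of mean log2 ratios was tested by a two-sided exact permutation test within season, with p-values adjusted over the 9. The smallest p these designs allow is 0.0167 between testis and caput and 0.005 against the cauda. Between testis and caput the group sizes are equal within each season, so each split and its mirror image count alike.

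The ratio of the miR-181a-1 to the miR-181a-2 3p arm was 55.7, 82.9 and 67.7 in TESTIS-R, and 8.53 and 17.9 in TESTIS-NR. It was 2.01 to 2.80 over the caput libraries and 4.92 to 6.75 over the cauda libraries. The 3 tissues did not overlap. The difference of mean log2 ratios was 3.83 between testis and caput (exact permutation p = 0.0167, adjusted p = 0.03, n = 5 each). It was 2.47 between testis and cauda (exact permutation p = 0.005, adjusted p = 0.0113, n = 5 and 6), and −1.36 between caput and cauda (exact permutation p = 0.005, adjusted p = 0.0113, n = 5 and 6). Within the testis, the R libraries lay above both NR libraries, a difference that was not tested.

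The ratio of mmu-miR-181b-5p to mmu-miR-181a-5p was 0.224 to 0.308 in the testis, 0.159 to 0.280 in the caput and 0.287 to 0.336 in the cauda. Its mean log2 ratio was lower in the caput than in the cauda by the test, with a difference of −0.52 (exact permutation p = 0.005, adjusted p = 0.0113, n = 5 and 6). It differed by −0.27 between testis and cauda (exact permutation p = 0.02, adjusted p = 0.03, n = 5 and 6), a call lost without any TESTIS-R library, CAUDA-NR 1 or CAUDA-NR 2. Between testis and caput the difference was 0.24 (exact permutation p = 0.133, adjusted p = 0.15, n = 5 each).

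The ratio of mmu-miR-181a-5p to the sum of its 3p arms was 12.4 to 24.3 in the testis, 21.2 to 42.1 in the caput and 24.7 to 37.8 in the cauda. On the log2 scale the testis was lower than the cauda by the test, with a difference of −0.77 (exact permutation p = 0.005, adjusted p = 0.0113, n = 5 and 6). Against the caput the difference was −0.71 (exact permutation p = 0.0333, adjusted p = 0.0429, n = 5 each), a call lost without TESTIS-R 1, TESTIS-R 2, CAPUT-R 1, CAPUT-R 2 or CAPUT-NR 1. Caput and cauda differed by −0.05 (exact permutation p = 0.67, adjusted p = 0.67, n = 5 and 6).

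**Figure D4:**
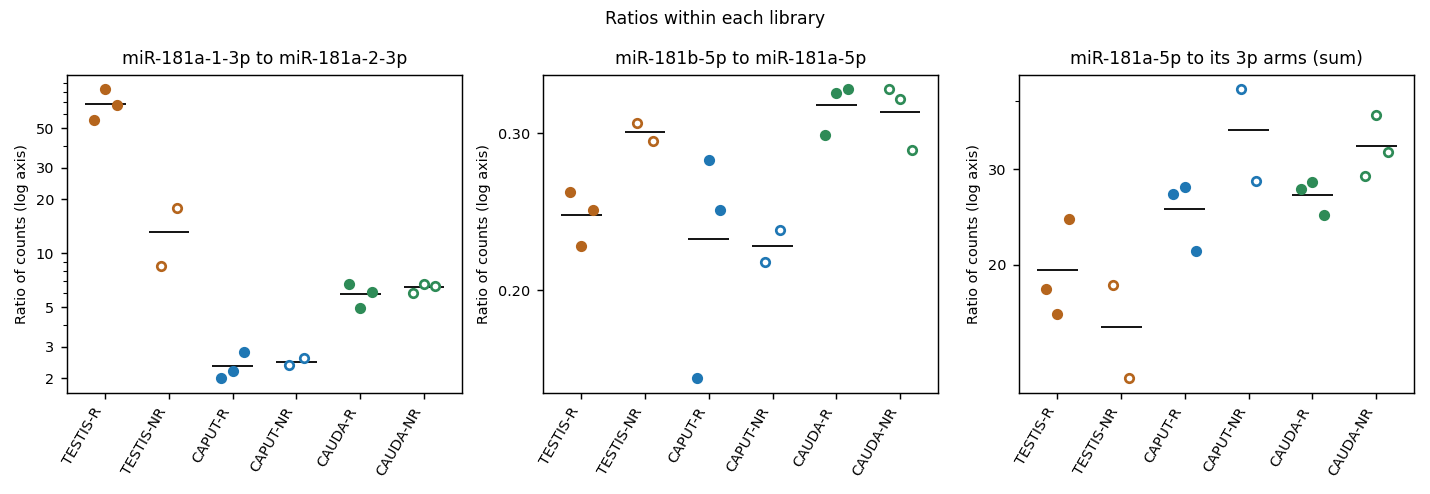
Ratios of counts between miR-181 members in each library, on log axes (1 point per library, filled for R and open for NR, bar at the group mean). The ratio of the miR-181a-1 to the miR-181a-2 3p arm lies between 8.53 and 82.9 in the testis, 2.01 and 2.80 in the caput and 4.92 and 6.75 in the cauda.

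Between the seasons, no member passed the threshold in any tissue. In the testis 0 of 8 members were called by edgeR, beside 0% of 496 miRNAs. At an unadjusted p under 0.05 there was 1 member, mmu-miR-181a-2-3p, beside 36 of all miRNAs. DESeq2 called this member, beside 24 of 496 miRNAs. In the caput 0 of 8 were called by edgeR, beside 0% of 534 miRNAs. At an unadjusted p under 0.05 there were 0, beside 24 of all miRNAs, and DESeq2 called 0, beside 15. In the cauda 0 of 8 were called by edgeR, beside 3.08% of 455 miRNAs (2.2% higher and 0.879% lower). At an unadjusted p under 0.05 there were 2, mmu-miR-181a-5p and mmu-miR-181b-5p, beside 75 of all miRNAs. DESeq2 called 1 of them, mmu-miR-181a-5p, beside 53 of 455 miRNAs.

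In the testis, mmu-miR-181a-2-3p had 6.00 to 11.3 CPM in TESTIS-R, against 34.9 and 37.8 CPM in TESTIS-NR. The season change, R minus NR, was −2.13 in log2 (SE 0.54, edgeR adjusted p = 0.406). Both TESTIS-NR libraries lay above all TESTIS-R libraries, and their germ cell marker sums were 341 and 4704 CPM. The piRNA counts per 100 miRNA counts were 134 to 209 in TESTIS-R and 6.64 in TESTIS-NR 1, and the part of germ cell content in this difference was not tested. The difference in this season change was −3.15 between testis and caput (SE 0.68, edgeR adjusted p = 0.147) and −2.24 between testis and cauda (SE 0.63, edgeR adjusted p = 0.383).

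For its 5p arm in the testis, mmu-miR-181a-5p averaged 10796 ± 769 CPM in TESTIS-R and 7402 ± 1113 CPM in TESTIS-NR (SD, n = 3 and 2). The groups did not overlap, and the R minus NR difference was 0.51 (SE 0.21, edgeR adjusted p = 0.701). In the cauda the same arm averaged 1726 ± 154 CPM in CAUDA-R and 2520 ± 386 CPM in CAUDA-NR (SD, n = 3 each). These groups did not overlap either, and the R minus NR difference was −0.50 (SE 0.15, edgeR adjusted p = 0.193). The difference for mmu-miR-181b-5p in the cauda was −0.47 (SE 0.19, edgeR adjusted p = 0.291), with CAUDA-R below CAUDA-NR in every library. In the caput, mmu-miR-181a-5p averaged 6092 ± 1809 CPM in CAPUT-R and 5471 ± 23.4 CPM in CAPUT-NR (SD, n = 3 and 2), and the groups overlapped.

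Season changes were also compared between tissues. By edgeR, 0 of 8 members differed between testis and caput, beside 0% of 784 miRNAs. At an unadjusted p under 0.05 there were 2, mmu-miR-181a-2-3p and mmu-miR-181c-3p, beside 60 of all miRNAs. DESeq2 called both, beside 24 of 784. Between testis and cauda 0 of 8 differed by edgeR, beside 0.128%. At an unadjusted p under 0.05 there was 1, mmu-miR-181a-2-3p, beside 76 of all miRNAs. DESeq2 called it, beside 32 of 784. Between caput and cauda 0 of 8 differed by edgeR, beside 0%. At an unadjusted p under 0.05 there were 0, beside 27 of all miRNAs, and DESeq2 called 0, beside 15.

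**Figure D5:**
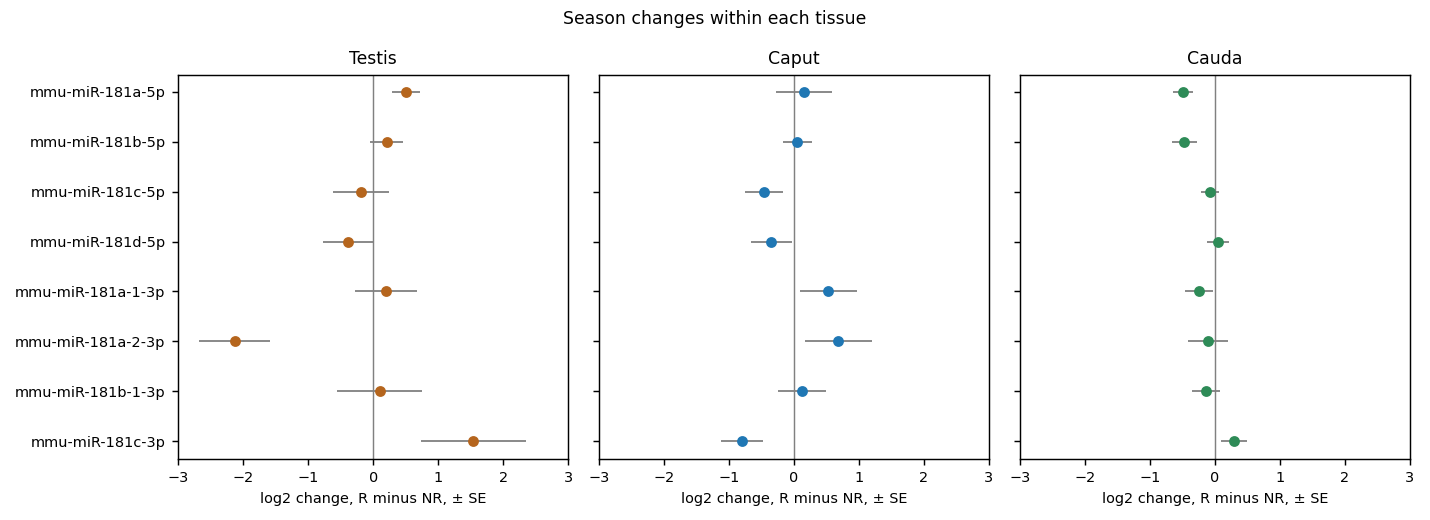
Season change of 8 miR-181 members in each tissue, as log2 change of R minus NR with its standard error (horizontal axis, TMM scaling within the tissue). None passed an edgeR adjusted p of 0.05, and mmu-miR-181a-2-3p in the testis lies farthest from 0, at −2.13.

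Across the 16 libraries, the miRNAs most like mmu-miR-181a-5p were ranked by Pearson's r of log2(CPM + 1) among 216 other mouse-named rows with a mean of at least 10 CPM. The points share libraries and tissues, so r describes these libraries and has no test. The 5 highest were miR-342-3p (r = 0.905), miR-532-5p (0.861), miR-30a-3p (0.832), miR-107-3p (0.831) and miR-99a-3p (0.814). The lowest were miR-145a-5p (−0.933), a smooth muscle miRNA, and miR-222-3p (−0.941). Within the family, r with mmu-miR-181a-5p was 0.963 for mmu-miR-181b-5p, 0.926 for mmu-miR-181a-1-3p, 0.345 for mmu-miR-181a-2-3p and −0.815 for mmu-miR-181c-5p. Thus the arm of the first miR-181a copy ran with the shared 5p arm over these libraries, and that of the second copy did so far less.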

How the data were processed

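The authors deposited raw counts per miRNA and per piRNA, 1 column per library, without normalization. Per the submitters' processing notes, featureCounts and bedtools were used. Their versions, the aligner, the genome build and the treatment of reads matching several miRNAs were not given in the sources used here. Per the design text, the authors compared seasons with DESeq2. Gene and piRNA cluster tables were not used. The members, comparisons and marker lists were chosen with earlier results of these data known.

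From the counts, CPM were computed per column total. Tests used edgeR 4.0.16 (R 4.3.3) with filterByExpr, TMM scaling and the quasi-likelihood test, on the libraries of 1 tissue for seasons and on all 16 measured libraries for tissues, with Benjamini-Hochberg adjustment over all miRNAs tested and a threshold of 0.05. The SE of a log2 difference was derived as its absolute value divided by the square root of the quasi-likelihood F statistic. Ratios had 0.5 added to each count for the tests. All members found were described, those with a group mean of at least 10 CPM by library, and the 5 miRNAs most like and 2 least like mmu-miR-181a-5p were named. Depth was 2166152 to 14756858 counts per library, and counting error is only part of the error. The labels call the replicates biological and do not say whether a number marks 1 animal. Alternatives were other scaling, no filter, DESeq2 1.42.0, a replicate block, keeping averaged columns, other sets of libraries and leaving out each library.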

Additional observations from a re-analysis of the deposited data

How the results depend on the processing

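Of the 29 member differences between tissues called by edgeR, 0 reversed under any alternative, and 72 of 696 alternative values lost the call. Of the 29, 16 kept the call in every alternative. The number of members called moved as follows. DESeq2 gave 1 call for season in the testis, beside 24 of all 496 miRNAs, and 1 in the cauda, beside 53 of 455. It gave 5 for caput against cauda in NR, beside 88 of 784. For the season change of testis it gave 2 against caput and 1 against cauda, beside 24 and 32 of 784. Keeping the averaged columns gave 5 for caput against cauda in NR, beside 73 of 679 miRNAs. It gave 1 for the season change of testis against caput, beside 4 of 679. With these columns the log2 ratio of miR-181b-5p to miR-181a-5p differed by 0.28 between testis and caput. Leaving out NR libraries numbered 3 left 1 library each in TESTIS-NR and CAPUT-NR. Fewer members and fewer of all miRNAs were then called in every NR comparison of tissues. The fit on the compared groups gave 0 for testis against caput in NR. In these cases the fits held fewer or other libraries. Otherwise the cause was not tested. The fit on the compared groups called 0 of all 433 miRNAs for testis against caput in NR. Leaving out 1 library of a group of 3 gave 6 to 7 calls for testis against cauda in NR, beside 114 of 780 to 172 of 732 miRNAs. It gave 0 to 3 for caput against cauda in NR, beside 10 of 775 to 29 of 732.

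mmu-miR-181a-5p, testis minus caput R, changed sign against −0.00, with 0.83 by column totals, 0.21 by DESeq2 size factors and DESeq2, 0.083 with the replicate block, 0.25 with averaged columns, 0.23 without NR libraries numbered 3, and 0.10 in the fit on the compared groups. mmu-miR-181a-5p, testis minus caput NR, at −0.06, gave 0.44, 0.017, 0.017, 0.15 and 0.044 by column totals, size factors, DESeq2, averaged columns and the compared groups. Without 1 library these ran from −0.11 to 0.53 and from −0.30 to 0.36, and mmu-miR-181a-5p, season caput, from −0.37 to 0.36. The log2 ratio of miR-181b-5p to miR-181a-5p ran from −0.33 to −0.21 between testis and cauda, and that of miR-181a-5p to its 3p arms from −0.83 to −0.57 between testis and caput and from −0.19 to 0.054 between caput and cauda.

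Whether replicate numbers pair the samples is not known: the labels do not say so. Deviations of same-numbered libraries correlated at −0.0248 to 0.256 between tissues of a season and at −0.159 to 0.101 between seasons, not above 0.1 in every pair. As a hint from the data, in 14 of 18 matches between tissues in R a library was closest to its own number. Each library had 3 candidates. Each pair of tissues was counted in both directions, so the matches are not independent, and they were not tested. With the replicate block 6 of the 29 calls were lost. They were all 3 for caput against cauda in NR, where the block left 0 of all 784 miRNAs called. The others were mmu-miR-181a-1-3p for testis against caput in NR, beside 62 of 784 miRNAs still called, and mmu-miR-181a-2-3p for testis against cauda in NR, beside 96. The last was mmu-miR-181b-1-3p for caput against cauda in R, beside 40. Without the block, 26, 118, 163 and 53 of 784 miRNAs were called in these 4 comparisons, so calls fell over all miRNAs. With 2 or 3 libraries per group, and 6.00 to 11.3 CPM for mmu-miR-181a-2-3p in TESTIS-R, small differences were not detectable at this depth.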

Other observations

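miR-27a-3p, whose gene stands beside MIR181C in the RefSeq annotation, averaged 77.7 CPM in TESTIS-R and 96.1 CPM in TESTIS-NR, 89.3 CPM in CAPUT-R and 91.0 CPM in CAPUT-NR, and 153 CPM in CAUDA-R and 170 CPM in CAUDA-NR. On column totals its testis and caput means were thus close. Those of mmu-miR-181c-5p were 71.8 CPM in TESTIS-R and 275 CPM in CAPUT-R. miR-23a-3p, looked up with it, was lower in the testis, with means of 301 CPM in TESTIS-R and 577 CPM in CAPUT-R. Its NR means were 393 CPM in TESTIS-NR and 553 CPM in CAPUT-NR. These rows were chosen after values were seen, and testis against caput depended on the scaling. This is a description, with no test of the difference in pattern.

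The miRNAs most like mmu-miR-181c-5p over the 16 libraries, looked up after its values were seen, were miR-361-5p (r = 0.969), miR-96-5p (0.965), miR-10b-3p (0.963), miR-200c-3p (0.954) and miR-335-5p (0.953). The least alike were miR-30a-3p (−0.965) and miR-202-3p (−0.968). mmu-miR-181d-5p had r = 0.977 with mmu-miR-181c-5p.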
